A study of Sus scrofa with 6 samples.

Results

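Ribosome biogenesis and nucleolar genes were followed in differentiating porcine satellite cells (PSCs), the stem cells of skeletal muscle, which give rise to myotubes. The genes were chosen by symbol from a list of 60 RNA polymerase I subunits, rRNA processing factors and nucleolar assembly factors, and 49 of the 60 symbols were paired with a row of the 28266-row expression table. The study compared NC24h with NC36h, with 3 RNA-seq libraries each (replicates 4, 5 and 6), in PSCs from 3-day-old male Yorkshire pigs. Both groups received the same negative control (NC) siRNA, by the paper's use of the letter N in its library names, and were kept in differentiation medium for 24 h or 36 h. For the later group, 48 h is written in the sample labels, and 36 h in the series title and the paper. The sources used here do not state whether the replicates came from separate animals or cultures, so p-values measure the spread between these libraries, which may be technical.

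A ribosome starts in the nucleolus, where RNA polymerase I transcribes a long precursor rRNA. Small nucleolar ribonucleoproteins (snoRNPs) modify this precursor, the small-subunit processome folds and cuts it, and separate sets of factors complete the small (40S) and large (60S) subunits before export. Cells that grow and divide use this pathway heavily, and myoblasts leave the cell cycle when they differentiate.

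The expression unit was FPKM, the fragments of a gene scaled to the length of its model and to all fragments counted in the library. The libraries held between 16338173 and 16863033 recovered fragments at 24 h and between 17968909 and 21840123 at 36 h. The labels' extraction text names endometrium, while the cell type is given as satellite cells. The muscle genes DES (FPKM between 1452 and 3367 over the 6 libraries) and MYOD1 (between 246 and 386) were high. Of the endometrial markers, KRT8 and PGR were listed at 0 and EPCAM reached 0.0370, whereas CDH1 was between 0.107 and 0.430 at 24 h and between 2.35 and 4.36 at 36 h, and HOXA10 was between 13.2 and 15.8. NC24h replicate 6 stood apart from replicates 4 and 5, with a summed FPKM of 196 against 77.2 and 102 over 13 cell cycle genes and of 12376 against 19483 and 17875 over 15 sarcomere genes.

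Most tested genes of the list, here called members, were lower at 36 h. Further genes of the pathway, given below, moved in both directions. The list was chosen with earlier results of these data known. Of the 45 members with a mean FPKM of at least 1, 28 fell and 1 rose at an adjusted p under 0.05 in limma on log2(FPKM + 1), with Benjamini-Hochberg adjustment over all 14060 genes tested, a log2 change being NC36h minus NC24h on that scale and SE its standard error. These were 62.2% of the tested members on the lower side, where 34.4% of all genes tested were lower and 16.5% higher. The median log2 change of the members was -0.33, beside -0.16 over all genes tested, and 34 of the 45 lay below the latter value. In 31 members the 3 libraries at 36 h all lay below the 3 at 24 h, and in 4 members all lay above, where 42.6% and 21.0% of all genes did so. On the linear scale the FPKM summed over the 49 paired members was between 1755 and 1809 at 24 h and between 1493 and 1549 at 36 h. A large part of this fall came from NPM1 alone, with a mean of 534 at 24 h and 366 at 36 h and a level that is uncertain, as given below.

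The size of the fall depended on how libraries were scaled, and on the deposited values the median gene itself lay below 0. Median-ratio scaling divides a library by the median, over genes, of the ratio to the mean library. After it, the median change of all genes was -0.01 and that of the members -0.17. With that scaling 20 members (44.4% of those tested) were lower and 5 higher, where 22.3% and 23.9% of all genes were. Quantile normalization gave 22 lower and 1 higher, where 25.2% and 21.6% of all genes were. Of the 29 members called on the deposited values, 21 kept their direction and their call in every alternative tried, and the remaining 8 (DDX56, NOL8, POLR1A, RRS1, UTP3, UTP11, WDR36 and WDR74) were not called after median-ratio scaling. Less RNA per cell and a smaller share of cells that express a gene cannot be told apart in these bulk samples.

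**Figure D1:**
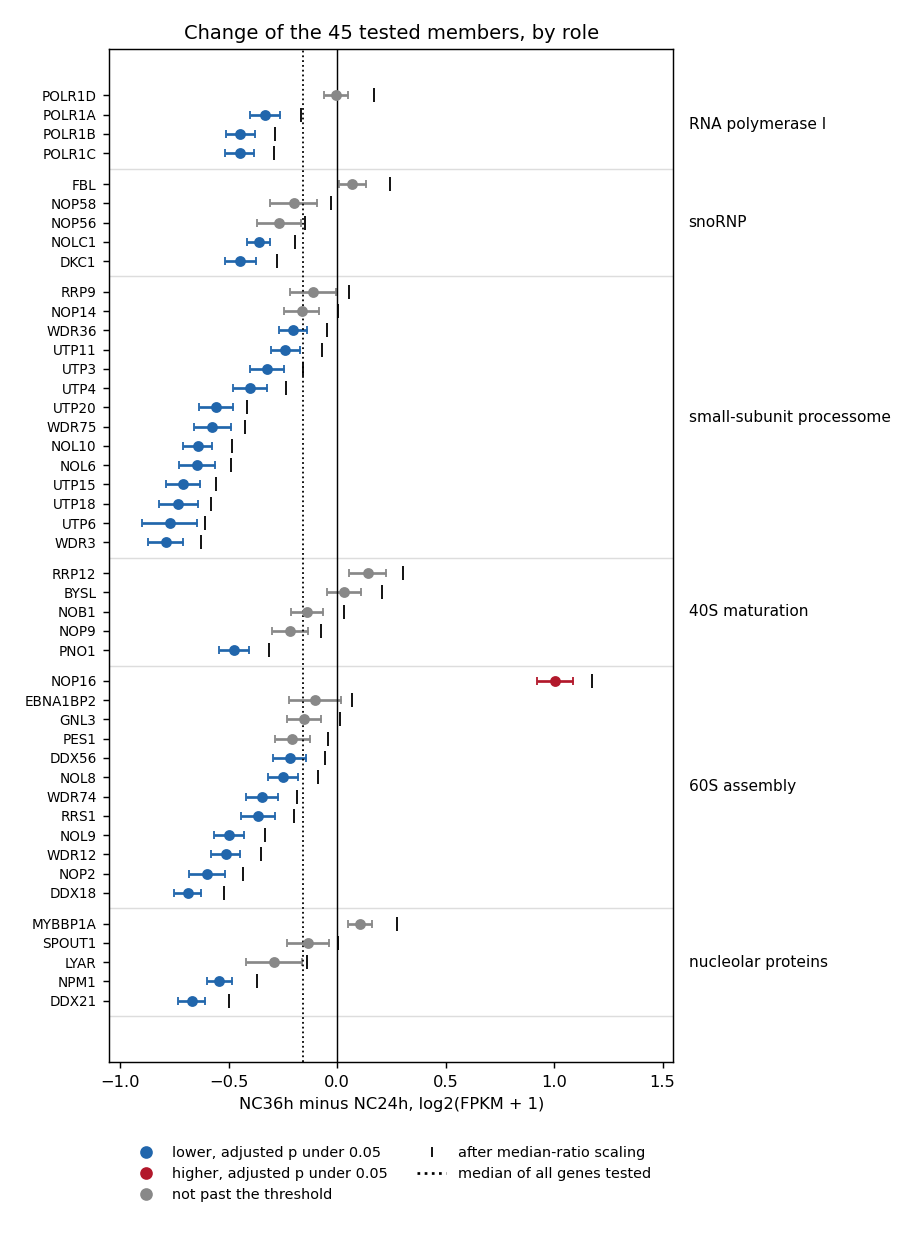
Change from NC24h to NC36h of the 45 tested members on the log2(FPKM + 1) scale, as points with the SE from limma, grouped by role and coloured by call. Black ticks give the value after median-ratio scaling and the dotted line the median of all genes tested (-0.16). The processome genes reach down to -0.79, NOP16 stands at 1.0, and POLR1D, RRP9, NOP14, NOB1, GNL3, EBNA1BP2 and SPOUT1 are negative on the deposited values and positive after median-ratio scaling.

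**Figure D2:**
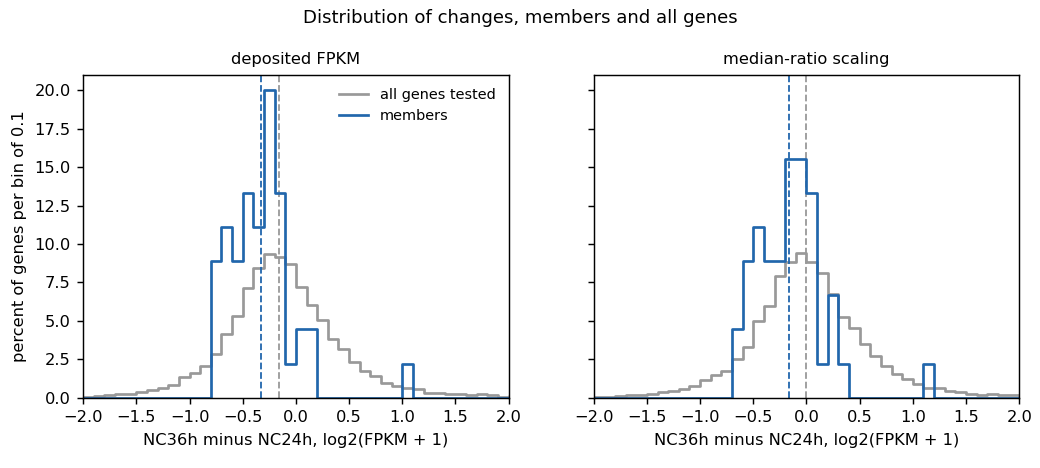
Share of genes per 0.1 step of log2 change between NC24h and NC36h, for the 45 tested members and all 14060 genes tested, on the deposited FPKM (left) and after median-ratio scaling (right). Dashed lines are medians, -0.33 and -0.16 on the left and -0.17 and -0.01 on the right.

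Of the RNA polymerase I genes, 3 of the 4 tested fell (75.0%, where 34.4% of all genes tested were lower). POLR1A (ENSSSCG00000008226, chromosome 3 of Sscrofa11.1 from 58670377 to 58750441), the largest subunit, had an FPKM of 19.1, 19.2 and 18.6 at 24 h and of 15.9, 14.2 and 14.5 at 36 h. Its groups did not overlap, and its log2 change was -0.33 (SE 0.07, limma adjusted p = 0.00760, and 0.0877 after median-ratio scaling). POLR1B (ENSSSCG00000008098), which forms the catalytic centre together with POLR1A, went from 14.0, 14.4 and 14.7 to 10.7, 10.2 and 9.89, a log2 change of -0.45 (SE 0.07, limma adjusted p = 0.00260). POLR1C, a subunit shared with RNA polymerase III, changed by -0.45 as well (limma adjusted p = 0.00265). Every library at 36 h lay below every library at 24 h in these 3 genes.

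POLR1D (ENSSSCG00000009310), the other subunit shared with RNA polymerase III, gave another picture. Its FPKM was 157, 165 and 166 at 24 h and 167, 159 and 161 at 36 h, so the groups overlapped. Its log2 change was -0.004 (SE 0.06, limma adjusted p = 0.962) on the deposited values and 0.17 (limma adjusted p = 0.0407) after median-ratio scaling. The FPKM of POLR1D rests on a gene model of 516 bases, against 6322 for POLR1A. RRN3 was not paired with a row and was not analysed here.

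The snoRNP genes encode the guides' protein partners, and 2 of the 5 tested fell, where 34.4% of all genes tested were lower. After median-ratio scaling 2 of the 5 were lower and 1 higher, where 22.3% and 23.9% of all genes were. DKC1 (ENSSSCG00000012823, chromosome X from 125218928 to 125228881), the pseudouridine synthase of box H/ACA particles, had an FPKM of 38.6, 39.8 and 42.7 at 24 h and of 27.5, 29.4 and 31.2 at 36 h. Its log2 change was -0.45 (SE 0.07, limma adjusted p = 0.00336). NOLC1, a chaperone of snoRNPs, fell from 38.8 ± 1.10 to 29.9 ± 0.371 (SD, n = 3 each; limma adjusted p = 0.00280). Neither gene overlapped between the groups.

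The members FBL, NOP58 and NOP56, core proteins of box C/D particles, did not pass the threshold. SNU13, another core protein of these particles and one of the further pathway genes, fell from 92.1 ± 3.85 to 77.2 ± 3.74 (SD, n = 3 each; log2 change -0.25, limma adjusted p = 0.0169, and 0.348 after median-ratio scaling). FBL (ENSSSCG00000030510, chromosome 6 from 48314782 to 48326433), the methyltransferase fibrillarin, had an FPKM of 86.7, 86.5 and 78.4 at 24 h and of 86.9, 89.1 and 88.2 at 36 h. All libraries at 36 h were thus a little higher, with a log2 change of 0.07 (SE 0.06, limma adjusted p = 0.366) that passed only after median-ratio scaling (0.24, limma adjusted p = 0.0329). NOP58 had 64.0, 59.1 and 47.6 at 24 h and 48.6, 49.2 and 49.3 at 36 h. Its lowest library was NC24h replicate 6, and the log2 change of -0.20 (SE 0.11, limma adjusted p = 0.162) became -0.32 (limma adjusted p = 0.00510) without that library. NOP56, the partner of NOP58, was listed far lower, at 2.48, 2.73 and 2.83 against 2.06, 1.90 and 2.19, with a log2 change of -0.27 (SE 0.10, limma adjusted p = 0.0616). Whether this row holds the reads of NOP56 was not tested, and the gene overlaps IDH3B, which rose (log2 change 0.49, limma adjusted p = 0.00327).

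Among the members, those of the small-subunit processome held the largest falls. Of these 14 tested members 12 fell, with a median log2 change of -0.57, and 9 of them remained lower after median-ratio scaling. These were 85.7% and 64.3% of the tested genes, where 34.4% and 22.3% of all genes were lower. The 23 tested small-subunit factors among the further pathway genes had a median log2 change of only -0.18. Of these, 11 were lower and 4 higher (47.8% and 17.4%, where 34.4% and 16.5% of all genes were). After median-ratio scaling 6 were lower and 6 higher (26.1% each, where 22.3% and 23.9% of all genes were). WDR3 (ENSSSCG00000006727, chromosome 4 from 102841459 to 102878636), a scaffold protein of the processome, had an FPKM of 16.6, 17.6 and 16.7 at 24 h and of 8.80, 9.11 and 10.3 at 36 h. Its mean fell by 44.5%, with a log2 change of -0.79 (SE 0.08, limma adjusted p = 0.000968), the lowest of all members. UTP6 went from 15.6, 16.4 and 21.2 to 10.3, 8.88 and 10.6, with NC24h replicate 6 the highest library, and its log2 change was -0.77 (SE 0.13, limma adjusted p = 0.00369). Neither gene overlapped between the groups. In UTP6 the gap between the nearest libraries of the groups was smaller than the range of the libraries at 24 h.

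UTP15 and UTP18, which belong to subcomplexes that join the precursor rRNA early, fell by a similar amount. UTP18 (ENSSSCG00000017593) had an FPKM of 8.91, 9.29 and 10.1 at 24 h and of 5.47, 4.77 and 5.60 at 36 h, a log2 change of -0.73 (SE 0.09, limma adjusted p = 0.00155). UTP15 (ENSSSCG00000014068) had 10.9, 10.1 and 11.7 against 6.28, 6.37 and 6.19, a log2 change of -0.71 (SE 0.08, limma adjusted p = 0.00120). UTP20 (ENSSSCG00000000869), a very large scaffold protein, was at a lower level of 5.99, 5.98 and 5.79 at 24 h and 3.57, 3.83 and 3.72 at 36 h, a log2 change of -0.56 (SE 0.08, limma adjusted p = 0.00215). In these 3 genes the groups did not overlap.

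Among the other processome members, NOL6, NOL10, WDR75 and UTP4 fell with log2 changes between -0.65 and -0.40 and were called under both other scalings. UTP3, UTP11 and WDR36 changed by between -0.32 and -0.20 and were called on the deposited values, but not under either other scaling. RRP9, which binds the U3 snoRNA, and NOP14 did not pass, with limma adjusted p-values of 0.418 and 0.132. Both were called without NC24h replicate 6, at 0.0485 and 0.0119.

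Of the 5 tested genes of late 40S maturation, 1 fell, where 34.4% of all genes tested were lower. Their median log2 change of -0.14 lay close to that of all genes tested (-0.16). After median-ratio scaling it was 0.03, beside -0.01 for all genes. PNO1, which binds the future end of the small-subunit rRNA, fell from 13.5 ± 0.488 to 9.44 ± 0.416 (SD, n = 3 each), a log2 change of -0.47 (SE 0.07, limma adjusted p = 0.00244). NOB1, the endonuclease that cuts at this end, had an FPKM of 28.9, 29.6 and 26.7 at 24 h and of 25.7, 24.1 and 27.3 at 36 h. Its groups overlapped, and its log2 change was -0.14 (SE 0.07, limma adjusted p = 0.156) on the deposited values and 0.03 after median-ratio scaling.

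BYSL, an assembly factor of the 40S precursor, had 96.8, 96.1 and 99.8 at 24 h and 95.3, 93.9 and 111 at 36 h. Its log2 change of 0.03 (SE 0.08, limma adjusted p = 0.747) turned to -0.04 without NC36h replicate 6, its highest library. RRP12, an export factor of both subunits, was between 15.6 and 18.8 at 24 h and between 19.0 and 19.7 at 36 h, a log2 change of 0.14 (limma adjusted p = 0.200) that passed only after median-ratio scaling (0.31, limma adjusted p = 0.0372). NOP9 was between 4.80 and 5.33 at 24 h and between 4.11 and 4.45 at 36 h, without overlap. Its log2 change was -0.22 (SE 0.08, limma adjusted p = 0.0649), and without NC24h replicate 6 it was -0.26 (limma adjusted p = 0.0406).

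Of the 12 tested genes of 60S assembly, 8 fell and 1 rose, whereas 4 were lower and 1 higher after median-ratio scaling, and 5 and 1 after quantile normalization. The lower ones were 66.7%, 33.3% and 41.7% of the tested genes, where 34.4%, 22.3% and 25.2% of all genes were lower. DDX18 (ENSSSCG00000015712), an RNA helicase, had an FPKM of 37.2, 37.1 and 34.9 at 24 h and of 22.5, 21.3 and 22.9 at 36 h, a log2 change of -0.69 (SE 0.06, limma adjusted p = 0.000801). NOP2, an rRNA methyltransferase, fell by 35.3% in the mean (log2 change -0.60, limma adjusted p = 0.00213). NOL9, the kinase that acts on a cut spacer of the precursor, fell by 30.4% (log2 change -0.50, limma adjusted p = 0.00204). These 3 genes kept their calls under every alternative, as did WDR12, and all their libraries at 36 h lay below those at 24 h.

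WDR12, PES1 and BOP1 form a complex that processes the large-subunit rRNA, and the table did not give the same picture for its parts. WDR12 (ENSSSCG00000016116) had 19.4, 19.9 and 18.8 at 24 h and 12.7, 13.0 and 14.0 at 36 h, a log2 change of -0.51 (SE 0.07, limma adjusted p = 0.00177). PES1 had 20.3, 20.2 and 17.7 against 16.5, 15.7 and 17.8, and NC24h replicate 6 lay just under NC36h replicate 6. Its log2 change of -0.21 (SE 0.08, limma adjusted p = 0.0710) was called without NC24h replicate 6 (-0.27, limma adjusted p = 0.0219). BOP1 was listed at 0 in all 6 libraries. The difference between WDR12 and PES1 was not tested.

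NOP16 was the single member that rose. NOP16 (ENSSSCG00000014058, chromosome 2 from 81488191 to 81498623), a nucleolar protein bound to the 60S precursor, had an FPKM of 74.0, 67.4 and 61.4 at 24 h and of 131, 142 and 136 at 36 h. Every library at 36 h was far above every library at 24 h, and the mean at 36 h was 2.02 times that at 24 h. Its log2 change was 1.0 (SE 0.08, limma adjusted p = 0.000692), between 0.94 and 1.07 when each library was left out in turn, and 1.18 after median-ratio scaling. The value rests on 2555 fragments at 24 h and 6284 at 36 h over a gene model of 759 bases. NOP16 overlaps ARL10 in the RefSeq annotation, which had an FPKM of 14.3 at 24 h and 13.4 at 36 h (limma adjusted p = 0.312).

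GNL3, the GTPase nucleostemin known from stem cells, had 32.2, 33.1 and 29.0 at 24 h and 26.1, 28.6 and 29.7 at 36 h. The groups overlapped through NC24h replicate 6 and NC36h replicate 6, and the log2 change was -0.15 (SE 0.08, limma adjusted p = 0.144) on the deposited values and 0.02 after median-ratio scaling. Without NC24h replicate 6 it was -0.21 (limma adjusted p = 0.0496). EBNA1BP2 had 30.0, 30.7 and 22.5 against 26.1, 25.6 and 25.0, so replicate 6 of NC24h was its lowest library. Its log2 change was -0.10 (limma adjusted p = 0.512), -0.24 without that library (limma adjusted p = 0.0130), and 0.07 after median-ratio scaling.

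**Figure D3:**
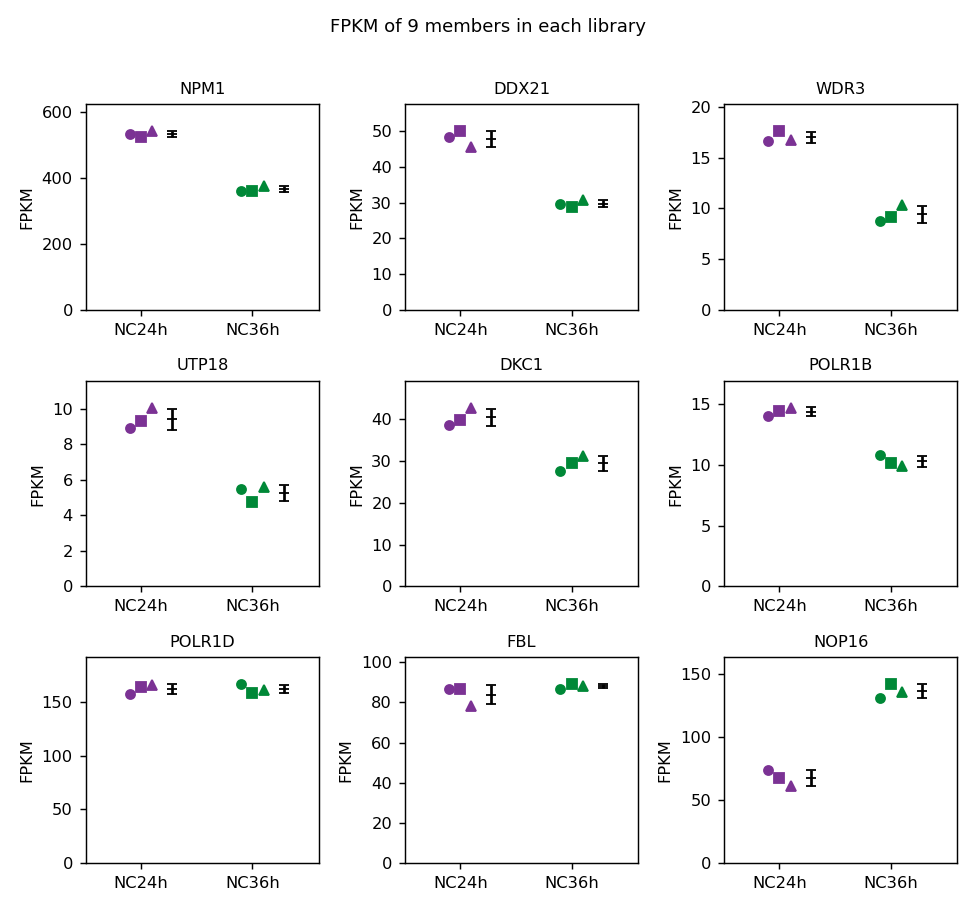
FPKM of 9 members in each library on axes that start at 0, with replicate 4 as a circle, replicate 5 as a square and replicate 6 as a triangle, and the mean with its SD (n = 3) to the right of each group. NPM1, DDX21, WDR3, UTP18, DKC1 and POLR1B are lower in every NC36h library, POLR1D overlaps, FBL differs by 5.01% in the mean on the deposited values, and NOP16 is higher in every NC36h library.

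Of the 5 tested genes of nucleolar proteins, NPM1 and DDX21 fell, where 34.4% of all genes tested were lower. After median-ratio scaling 2 of the 5 were lower and 1 higher, where 22.3% and 23.9% of all genes were. NPM1 (ENSSSCG00000016998, chromosome 16 from 52767263 to 52781862), a chaperone of the granular nucleolus, was the highest member, with an FPKM of 534, 524 and 542 at 24 h and of 361, 361 and 377 at 36 h. Its mean fell by 31.4%, a log2 change of -0.54 (SE 0.06, limma adjusted p = 0.00119), from 32579 and 27243 fragments per group. NPM1 has processed copies in mammalian genomes, and the handling of shared reads is not given in the sources used here, so its level is uncertain. DDX21 (ENSSSCG00000010247), a helicase that acts in rRNA transcription and processing, went from 48.2, 49.9 and 45.5 to 29.6, 28.7 and 30.7, a log2 change of -0.67 (SE 0.06, limma adjusted p = 0.000870). Both genes kept their calls in every alternative.

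MYBBP1A, LYAR and SPOUT1 did not pass the threshold. MYBBP1A, known as a repressor of rRNA synthesis, was between 45.3 and 48.3 at 24 h and between 49.4 and 51.5 at 36 h, so its groups did not overlap. Its log2 change was 0.11 (SE 0.06, limma adjusted p = 0.156), and 0.28 (limma adjusted p = 0.0117) after median-ratio scaling. LYAR had 7.29, 7.12 and 9.28 against 7.09, 6.23 and 5.46 (limma adjusted p = 0.0998).

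The rows of 4 members could not be used for a comparison. NCL, the nucleolin gene, was listed at 0.765, 0.457 and 0.372 at 24 h and at 0.0982, 0.156 and 0.265 at 36 h, from 39 and 15 fragments per group. GAR1 rested on 2 fragments at 24 h and 1 at 36 h, and WDR43 on 4 and 7. BOP1, as above, was listed at 0. Nucleolin is an abundant protein of every nucleolus, and whether these rows hold the reads of their genes was not tested. The remaining 11 symbols (RRN3, NHP2, NOP10, UTP14A, NOL11, DDX10, LTV1, TSR1, RRP1, GNL2 and NIP7) were not paired with a row and were not analysed here.

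**Figure D4:**
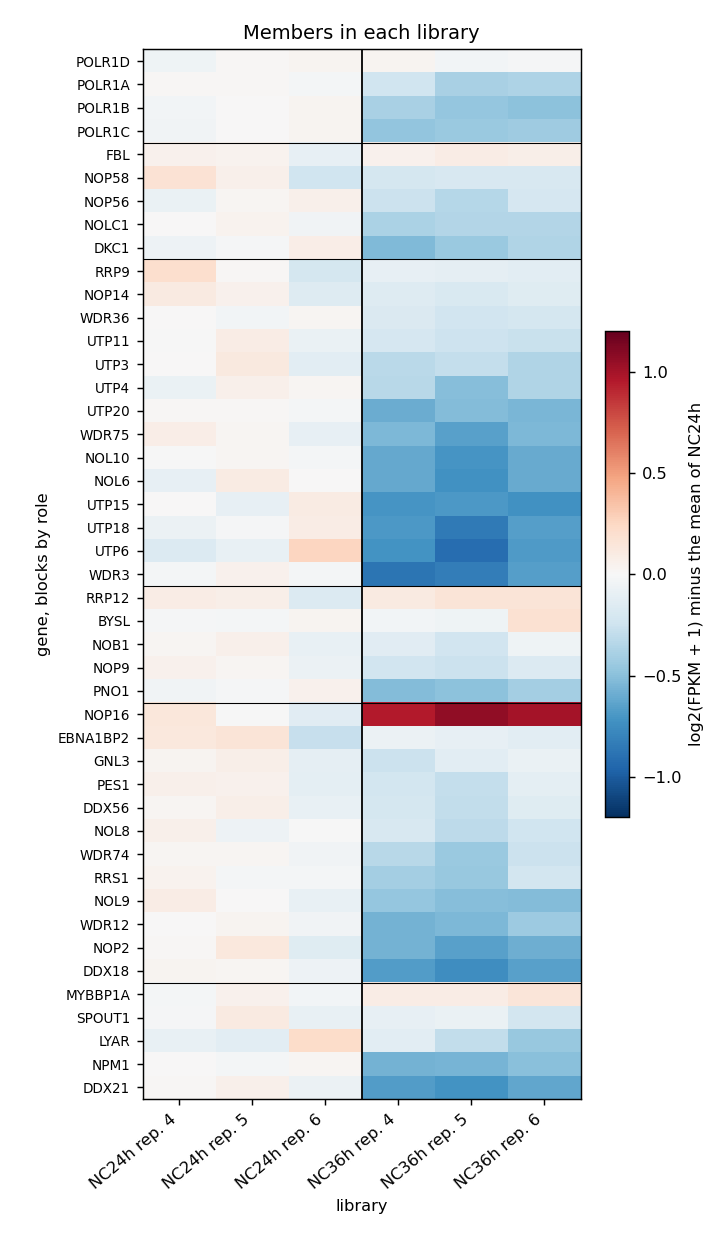
Each tested member in each library, as log2(FPKM + 1) of the deposited values minus the gene's mean in NC24h, in blocks by role. Blue is lower and red higher. Most rows are blue in all 3 NC36h libraries, and NOP16 is red in all 3. Within NC24h, replicate 6 departs from replicates 4 and 5 in rows such as NOP58, RRP9, UTP6 and EBNA1BP2.

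The spread among replicates was small for most members. The coefficient of variation had a median of 5.45% at 24 h and 4.25% at 36 h, and its maxima were 17.0% for UTP6 at 24 h and 13.1% for LYAR at 36 h. NC24h replicate 6 was the lowest of its group in 28 of the 45 members (62.2%), where it was so in 34.0% of all genes tested. In the same library the cell cycle genes were higher and the sarcomere genes lower than in replicates 4 and 5, as given above. Without NC24h replicate 6, 35 members were lower and 1 higher, against 28 and 1 with it, and the 7 added were EBNA1BP2, GNL3, NOP9, NOP14, NOP58, PES1 and RRP9. The share of all genes called lower without this library is not given here, so the added calls cannot be read as particular to the members.

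In their spans 16 of the 45 tested members overlap another protein-coding gene of the RefSeq annotation. Since strandedness is not given in the sources used here, reads from the stretches that such pairs share cannot be assigned to one gene with certainty. Of the 16 partners, 5 were lower, 1 was higher, 4 were not called, 2 were below the minimum and 4 were not paired with a row. The lower ones were PTCD3 with POLR1A (log2 change -0.38), XPO5 with POLR1C (-0.50), MBTD1 with UTP18 (-0.46), ARL1 with UTP20 (-0.34) and COL5A2 with WDR75 (-0.42), all at an adjusted p under 0.05 in limma. WDR3, DDX18, DDX21, UTP15, UTP6 and DKC1 overlap no protein-coding gene there.

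Other genes of the pathway moved in both directions. Of 123 further ribosome biogenesis symbols listed, which held both the older and the newer name of some genes, 96 were paired. Of these genes 93 were tested, and 39 were lower and 11 higher, with a median log2 change of -0.21. These were 41.9% and 11.8% of the 93 tested, where 34.4% and 16.5% of all genes were lower and higher. After median-ratio scaling 18 were lower and 20 higher (19.4% and 21.5%, where 22.3% and 23.9% of all genes were), and after quantile normalization 25 and 17 (26.9% and 18.3%, where 25.2% and 21.6% of all genes were). URB2, a factor of early 60S assembly, had the lowest change, from 8.29 ± 0.216 to 3.44 ± 0.274 (SD, n = 3 each; log2 change -1.07, limma adjusted p = 0.000692). NMD3, the adaptor that takes 60S subunits out of the nucleus, went from 25.6 ± 0.287 to 12.5 ± 0.362 (log2 change -0.98, limma adjusted p = 0.000586). Next came TAF1B, a subunit of the RNA polymerase I selectivity factor (-0.83), the processome gene DCAF13 (-0.73) and the kinase gene RIOK1 (-0.71), and all 5 remained lower under every alternative.

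The rises included EXOSC6, a subunit of the RNA exosome, from 5.20 ± 0.318 to 9.61 ± 0.926 (SD, n = 3 each; log2 change 0.77, limma adjusted p = 0.00153). TAF1C, which sits in the same selectivity factor as TAF1B, went the other way, from 5.04 ± 0.580 to 9.21 ± 2.75 (log2 change 0.73, limma adjusted p = 0.0189). It was not called without NC24h replicate 5 (limma adjusted p = 0.0622) or NC36h replicate 5 (0.0525), over a range from 0.00748 to 0.0622 for all alternatives. DDX51 (0.69), TSR2 (0.61) and EXOSC4 (0.50) also rose, the last with an adjusted p in limma between 0.00587 and 0.0503 over its alternatives, the highest without NC36h replicate 5.

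Genes of finished ribosomes are given for comparison, without a test between lists. Of 26 tested cytosolic ribosomal protein genes 23 were lower, with a median log2 change of -0.49 (18 lower and a median of -0.31 after median-ratio scaling). These were 88.5% and 69.2%, where 34.4% and 22.3% of all genes were lower. Only the 27 genes of this family whose symbols were paired with a row were considered. The handling of shared reads is not given for them either. Of 44 mitochondrial ribosomal protein genes 13 were lower and 11 higher (29.5% and 25.0%, where 34.4% and 16.5% of all genes were). Their median was -0.03. After median-ratio scaling 4 were lower and 16 higher (9.1% and 36.4%, where 22.3% and 23.9% of all genes were), with a median of 0.14. Quantile normalization gave 5 and 14 (11.4% and 31.8%, where 25.2% and 21.6% of all genes were). The tested members, at -0.33 and -0.17, lay between these lists.

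Markers of the state of the cells moved with the same comparison. Of 12 tested cell cycle genes 9 were lower, and the summed FPKM of the 13 paired genes was between 77.2 and 196 at 24 h and between 29.8 and 39.0 at 36 h. Of 14 tested sarcomere genes 13 were higher, with a sum over 15 genes between 12376 and 19483 at 24 h and between 31902 and 36146 at 36 h. Of 5 tested fibroblast genes 3 were lower and 1 higher, with a sum over 7 genes between 930 and 1001 at 24 h and between 825 and 1030 at 36 h, and the marker PDGFRA was at or under 0.680 in every library. That sum was mostly COL1A2, whose mean fell by 35.0%, and COL3A1, whose mean was 83.9% higher at 36 h. The means of DCN and LUM fell by 67.4% and 66.7%. The leukocyte sum was between 4.54 and 5.77 at 24 h and between 1.80 and 3.10 at 36 h, with PTPRC listed at 0. The part of these cell states and cell types in the falls of the ribosome biogenesis genes was not tested.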

How the data were processed

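The authors sequenced paired-end reads, which per their methods were mapped with HISAT2 to Sscrofa11.1, assembled with StringTie and counted with HTSeq. The submitters' processing notes name TopHat2, Cufflinks and HTSeq in their place. The authors deposited FPKM values, one column per library. Whole fragments, gene lengths and library totals were recovered from the FPKM steps for 19542 of 19543 genes above 0 in at least 3 libraries (tolerance 0.02 fragments).

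Because FPKM values are not counts, limma 3.58.1 (R 4.3.3; two-sided moderated test with a trend of the variance) was run on log2(FPKM + 1). Only the 14060 genes whose mean FPKM reached 1 entered it, and the Benjamini-Hochberg adjustment covered all 14060, with 0.05 as threshold. A fold change on this scale understates that of low genes. The fit was tested on simulated data. Alternatives were a pseudocount of 0.1, no filter, a minimum mean FPKM of 5, quantile normalization, median-ratio scaling, no variance trend, a replicate block, leaving out each library, and limma voom on the recovered fragments.

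The members and all gene lists were chosen with earlier results of these data known. Values in every library are given for 16 genes of central role (except RRN3, which had no row), the 6 largest falls, the rises, and the 4 smallest changes. Of the further pathway genes, the 5 largest falls and rises are named. Symbols were paired with 11804 of 25322 Ensembl identifiers. Gene coordinates were taken from the RefSeq annotation of Sscrofa11.1. Overlaps used gene spans without strand. No sequences were used.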

Additional observations from a re-analysis of the deposited data

How the results depend on the processing

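The number of lower members ranged from 24 to 35 when each library was left out, the number of higher members stayed at 1, and the median change ranged from -0.37 to -0.30. The shares of all genes called lower or higher in these fits are not given here. That median was -0.37 with a pseudocount of 0.1 and with voom, -0.17 after median-ratio scaling and -0.21 after quantile normalization. Median-ratio scaling gave 5 higher members. Of the further pathway genes, 18 were lower and 20 higher after median-ratio scaling, and 25 and 17 after quantile normalization, against 39 and 11 on the deposited values. The number of higher ones was 6 without NC24h replicate 5 and without NC36h replicate 5, and ranged from 6 to 11 without one library each. The cause was not tested. Of the called members, UTP3, UTP11, WDR36, DDX56 and NOL8 lost their call without at least 1 of NC24h replicates 4 and 5 and NC36h replicates 4, 5 and 6. Directions turned only for members that were not called. After median-ratio scaling these were POLR1D (0.17), RRP9 (0.056), NOP14 (0.0065), NOB1 (0.030), GNL3 (0.015), EBNA1BP2 (0.068) and SPOUT1 (0.0035), and after quantile normalization SPOUT1 (0.053). Without one library each, POLR1D ranged from -0.027 to 0.011 and BYSL from -0.044 to 0.076. The replicate numbers were not taken to pair the libraries, since same-numbered libraries deviated together with correlations of 0.15, -0.02 and 0.18 for numbers 4, 5 and 6. With the replicate block 26 members were lower and 1 higher, and 7034 genes were called against 7156. Members at a low level, such as SPOUT1 with 236 fragments at 24 h, have the least precise values.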

Other observations

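MYC and its partners, known as regulators of ribosome biogenesis genes, were listed with the markers, and 7 of the 9 listed genes were tested. MXD1, a repressor of the network, rose from 5.72 ± 0.527 to 12.1 ± 0.0840 (SD, n = 3 each; log2 change 0.96), and MXD4 rose with a log2 change of 0.36, both at an adjusted p under 0.05 in limma. MXD3 (-0.05), MXI1 (-0.02) and MLX (0.07) were not called on the deposited values. MYCN was low but higher in every NC36h library, with means of 1.14 and 1.81. Its log2 change was 0.40 (limma adjusted p = 0.0732, and 0.0419 after median-ratio scaling). MYC itself had an FPKM of 24.7, 28.3 and 29.9 at 24 h and of 9.62, 11.0 and 44.4 at 36 h (log2 change -0.67, limma adjusted p = 0.316). NC36h replicate 6 lay above and the other NC36h libraries below all NC24h libraries, and without it the log2 change of MYC was -1.34 (limma adjusted p = 0.00285). In NC36h replicate 6 the members were the highest of their group in 25 of 45 cases (55.6%), where 39.1% of all genes tested were. NC24h replicate 6 had the highest MYC of its group. There the members were the lowest of their group in 28 of 45 cases (62.2%), where 34.0% of all genes tested were. A link between MYC and the members was not tested.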
